A study of Homo sapiens with 8 samples.

Results

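The cytosolic ribosomal protein genes encode the protein components of the large (RPL) and small (RPS) ribosomal subunits. They were taken by symbol: every protein-coding gene named RPL or RPS with a number, with an optional suffix A, X or L, together with RPLP0, RPLP1, RPLP2 and RPSA, while pseudogenes, RPS27L and the Y-linked copies of RPS4X were left out. The arrays held 155 probes for 80 such genes, and 79 of them were among the 28850 genes tested. RPL39L was measured below the minimum mean signal and has no value here.

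LNCaP cells, an androgen-responsive line established from a human prostate cancer metastasis, grew in RPMI-1640 with fetal bovine serum and received 30 nM of either a single siRNA against GATA2 (siGATA2) or a scrambled siRNA (siControl), carried in by oligofectamine. RNA was collected 72 h later for 4 replicates of each group, and each replicate was measured on its own one-colour Agilent array. The labels number the replicates without saying whether they came from separate transfections. The sample titles also carry a letter, whose meaning is not stated. Replicate 2 of siGATA2 shares the letter B with replicate 1 of siControl. Replicate 4 of siGATA2 shares F with replicate 3 of siControl. Except where a block is named, every SE and p-value here takes the replicates as independent. GATA2 is a zinc-finger transcription factor, and the study asked which genes change when its amount is reduced. All values therefore come from 1 cell line, 1 time point and 1 dose, both groups carry siRNA and transfection reagent, and no untransfected cells were among the arrays analysed.

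Ribosomal proteins are made in step with ribosomal RNA, and in most human cells their mRNAs are among the most abundant. These mRNAs usually begin with a C and an uninterrupted run of pyrimidines, the 5′ terminal oligopyrimidine (TOP) motif, through which the LARP1 protein and the kinase complex mTORC1 control their translation and stability. A few of the proteins have roles apart from the ribosome, such as RPL5 and RPL11, which with 5S rRNA bind MDM2, the ubiquitin ligase of p53.

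The motif can be seen at the start sites that RefSeq gives for assembly GRCh38.p14. Of the 8 stretches that follow, those of RPL29, RPL13A, RPS12 and RPL27A show it in genes lower in the siGATA2 group. Those of RPLP0 and RPS14 show it in genes that did not pass the test. No pyrimidine run begins at the start given for RPS15 or for RPL10L, a copy of RPL10 of retrotransposed origin. RPS15 has such a run further inside its transcribed bases, and whether the start given is the one used was not tested. Each has 15 bases before the start site and 15 from it on, written 5′ to 3′ along the transcribed strand, and capitals mark the pyrimidine run that begins at the first transcribed base.
RPL29: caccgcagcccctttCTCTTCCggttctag
RPL13A: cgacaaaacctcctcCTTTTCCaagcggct
RPS12: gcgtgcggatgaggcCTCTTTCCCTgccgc
RPL27A: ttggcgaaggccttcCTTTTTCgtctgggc
RPLP0: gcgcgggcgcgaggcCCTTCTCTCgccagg
RPS14: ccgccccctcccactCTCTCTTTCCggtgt
RPS15: tgcgcaggcgcggaccaaagcgatctcttc
RPL10L: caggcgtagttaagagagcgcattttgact

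The RPL29 stretch lies at chr3:51995881-51995910 on the minus strand, that of RPL13A at chr19:49487593-49487622 on the plus strand, that of RPS12 at chr6:132814554-132814583 on the plus strand and that of RPL27A at chr11:8682777-8682806 on the plus strand. RPLP0 lies at chr12:120201097-120201126 on the minus strand, RPS14 at chr5:150449725-150449754 on the minus strand, RPS15 at chr19:1438381-1438410 on the plus strand and RPL10L at chr14:46651767-46651796 on the minus strand. In each of them the first 15 bases are promoter and the last 15 are transcribed. Of the 80 genes, 63 were matched to the promoter table. A C at the start followed by at least 4 further pyrimidines was found in 46 of these 63 (73.0%), in 6 of 69 mitochondrial ribosomal protein genes (8.70%) and in 5.14% of all 27305 genes in the table. In the window from 250 bases before to 50 bases after the start, read on both strands, the ETS-family core CCGGAAG occurred in 34.9% of the ribosomal protein genes, 43.5% of the mitochondrial ones and 12.2% of all genes.

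The GATA-type motif AGATAA, searched in the same windows and on both strands, occurred in 3 of the 63 genes (4.76%), in 3 of the 69 mitochondrial ones (4.35%) and in 12.4% of all genes. A match to these letters is a description of the sequence and not a binding site.

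Before the comparison, the targeted gene and the arrays were examined. The single GATA2 probe read 12.61, 12.54, 11.57 and 11.40 on siGATA2 arrays 1 to 4 and 11.74, 11.28, 11.10 and 11.29 on siControl arrays 1 to 4, on the log2 scale. It was therefore not lower in the libraries labelled siGATA2: the difference was 0.68 (SE 0.31, limma adjusted p = 0.154), so every direction given here rests on the labels. Where values are set against each other, those of siGATA2 arrays 1 to 4 come first and those of siControl arrays 1 to 4 second. All 10 luminal prostate markers examined, among them HOXB13 and EPCAM, were well above background on all 8 arrays, and 5 of them, with KLK2 and KLK3, were lower in the siGATA2 group while 1, KRT8, was higher. Of 15 markers of basal, fibroblast, immune and endothelial cells 12 were tested, 1 of them lower and 1 higher (VWF and PTPRC, 8.33% each), while KRT5, COL3A1 and LUM lay under the minimum. Their summed linear signal was 2453 to 2727 on the siGATA2 arrays and 2602 to 2942 on the siControl arrays. The siControl arrays 1 and 3 had fewer probes well above background (28501 and 24331) than the other 6 (34022 to 36976), and a noisier negative control, with an SD of 4.49 and 7.26 intensity units against 1.78 to 2.40. The mean log2 signal of the E1A spike-in was 11.13 on siControl array 1 and 13.45 to 13.83 on the others. All arrays lay on 1 slide, where 1 row held siGATA2 arrays 1 to 3 with siControl array 4 and the other row held siGATA2 array 4 with siControl arrays 1 to 3. No spot was saturated.

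Ribosomal protein mRNA was lower in the siGATA2 group, by a small amount in most genes. At an adjusted p under 0.05, limma found 29 of the 79 genes (36.7%) lower, 0 higher and 50 on neither side. Across all genes tested, 14.2% were lower and 12.3% were higher. The log2 fold change, the siGATA2 mean minus the siControl mean, was below 0 in 77 of the 79 genes and had a median of -0.32, with quartiles at -0.45 and -0.23, against a median of 0.09 over all genes. At an unadjusted p under 0.05, 50 members were lower and 1 (RPL3L) was higher, together 64.6% against 37.7% of all genes. The methods' t-test gave 35 lower (44.3%, against 13.6% of all genes) and 0 higher after adjustment. Every siGATA2 value lay below every siControl value in 49 members, an ordering found in 16.5% of all genes. The opposite ordering occurred in 0 members and in 4670 of all 28850 genes. Only RPL27A was both called and lower by at least 2-fold, which 7.13% of all genes were. Its single probe read far below the signal of the median member. Leaving out siGATA2 array 1 or 2 or siControl array 2, 3 or 4 left 16 or 17 members lower (20.3% to 21.5%, against 11.2% to 12.3% of all genes). Leaving out siControl array 1 gave 36 (45.6% against 15.4%). Since RNA of whole cultures was measured, a fall in every cell and a larger fall in part of the cells cannot be told apart. Each array took the same amount of RNA, so the values are relative to the other RNAs, and the amount per cell was not measured.

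Both subunits held genes that fell. Of the 45 large subunit genes tested 16 were lower (35.6%), with a median of -0.30. Of the 31 small subunit genes 13 were lower (41.9%), with a median of -0.33. Across all genes tested, 14.2% were lower. The 3 stalk genes had a median of -0.26, and 0 passed by limma, with 1 at an unadjusted p under 0.05 (33.3%, against 37.7% of all genes). The difference between the subunits was not tested.

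**Figure D1:**
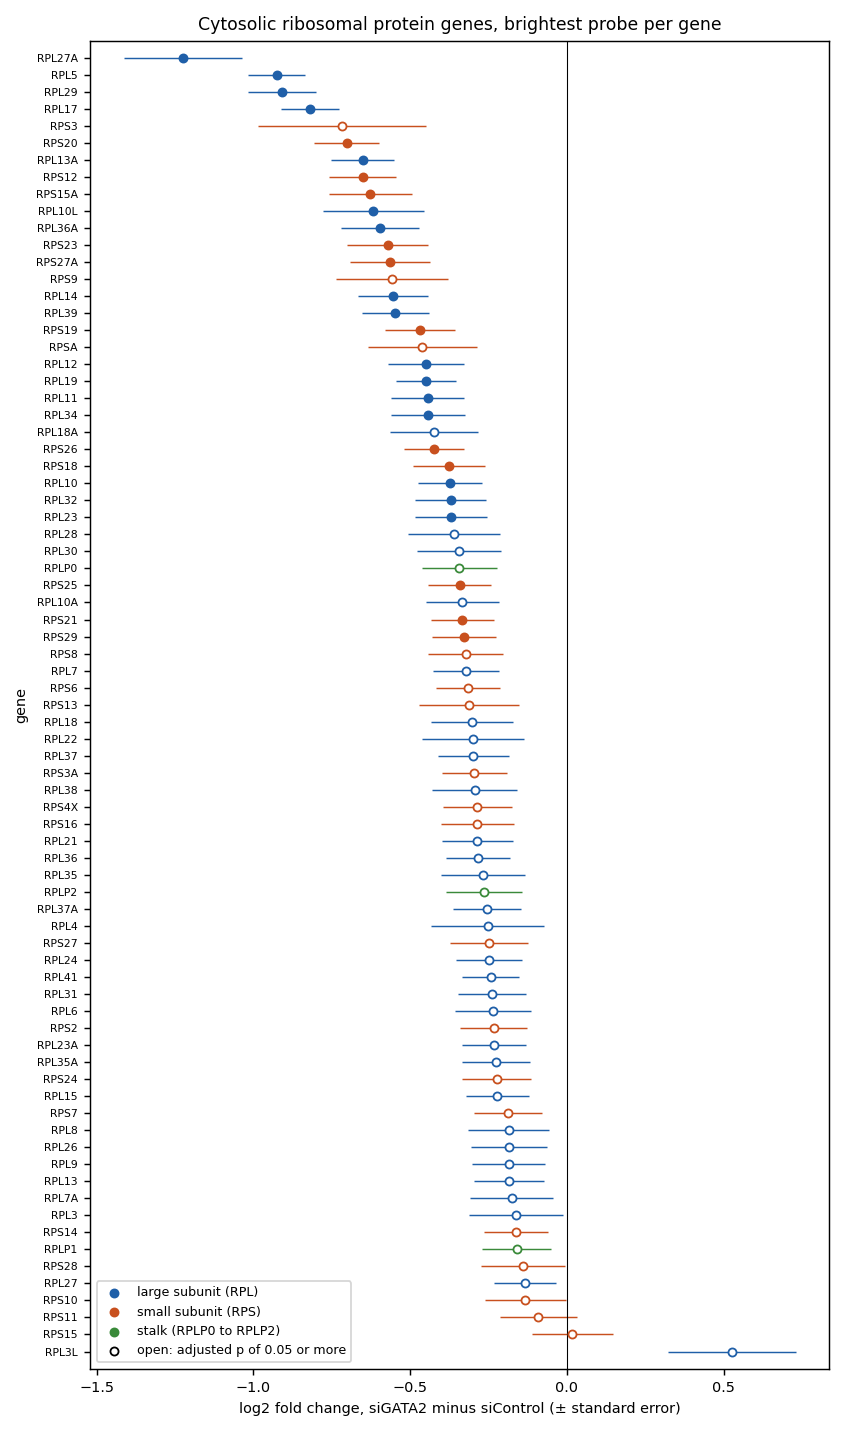
Log2 fold change of 77 of the 79 ribosomal protein genes tested (horizontal axis, siGATA2 minus siControl, with its standard error), coloured by subunit, with filled circles for adjusted p under 0.05. The points lie left of 0 in 75 of the genes drawn, from -1.22 in RPL27A on, and RPS15 at 0.02 and RPL3L at 0.53 lie to the right.

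The 5S ribonucleoprotein genes were among those that fell. RPL5, which carries 5S rRNA into the large subunit, read 16.96, 16.86, 16.79 and 16.87 on the siGATA2 arrays and 17.73, 17.82, 17.80 and 17.84 on the siControl arrays. All siGATA2 values lay below all control values, and the change of -0.93 (SE 0.090, limma adjusted p = 0.000215) is a signal lower by 47.4%. All 4 probes of RPL5 were lower, at -0.93 to -1.34. RPL11, its partner in the same particle, fell by 0.44 (SE 0.12, limma adjusted p = 0.0257), with 16.83, 16.86, 17.14 and 17.13 against 17.30, 17.50, 17.43 and 17.50. Its call was lost without siGATA2 array 1 or 2 or siControl array 2, 3 or 4, where the adjusted p lay between 0.0601 and 0.0768, with the slide row as a block (0.103) and with the replicate block (0.0549). It was also lost under E1A scaling (limma adjusted p = 0.121), without normalization (0.198) and with siControl arrays 2 and 4 only (0.053).

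Other large subunit genes fell by more than the median member. RPL29, a component of the large subunit that also binds heparin, read 16.93, 16.74, 16.84 and 16.77 on the siGATA2 arrays and 17.54, 17.79, 17.86 and 17.73 on the siControl arrays. The groups were separate and the change was -0.91 (SE 0.11, limma adjusted p = 0.000587), and its 4 probes ranged from -0.89 to -1.29. RPL17, which lies near the peptide exit of the large subunit, read 16.98, 16.88, 16.95 and 17.07 against 17.74, 17.82, 17.82 and 17.79, a change of -0.82 (SE 0.091, limma adjusted p = 0.000417). Its 3 probes lay within 0.019 of each other, and all 3 were lower.

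RPL13A, a large subunit protein also described as part of a translation silencing complex in myeloid cells, read 17.85, 17.86, 17.97 and 17.86 against 18.36, 18.59, 18.58 and 18.61. It fell by 0.65 (SE 0.10, limma adjusted p = 0.00208), with siControl array 1 below the other 3 controls but above every siGATA2 array. RPL13A did not pass under E1A scaling (limma adjusted p = 0.0969) or without normalization (0.085). RPL27A, of the large subunit, had 1 probe, with 8.94, 8.85, 9.45 and 9.45 on the siGATA2 arrays and 10.16, 10.66, 10.31 and 10.46 on the siControl arrays. Its groups did not overlap, and its change of -1.22 (SE 0.19, limma adjusted p = 0.00214), a signal lower by 57.2%, was the lowest among the members. This probe read far below the median of the members, which was 17.65 to 18.15 on the 8 arrays. Whether it reports the main RPL27A mRNA was not tested. The RPL27A call was lost without normalization (limma adjusted p = 0.0524). The siGATA2 arrays 1 and 2 were the lowest.

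RPL10, which joins the large subunit last and shapes its catalytic centre, read 16.51, 16.51, 16.75 and 16.69 on the siGATA2 arrays and 16.90, 17.00, 17.04 and 17.00 on the siControl arrays. The groups were separate, with a change of -0.37 (SE 0.10, limma adjusted p = 0.029), and the call was lost without siGATA2 array 1 or 2 or siControl array 2, 3 or 4 (adjusted p 0.0731 to 0.0808), with the slide row as a block (0.114) and with the replicate block (0.072). It was also lost under E1A scaling (limma adjusted p = 0.162), without normalization (0.261) and with siControl arrays 2 and 4 only (0.077). RPL39, the small protein lining the exit tunnel, fell by 0.55 (SE 0.11, limma adjusted p = 0.0069). The RPL39 call was lost under E1A scaling (limma adjusted p = 0.0979) and without normalization (0.103). RPL3, at the peptidyl transferase centre, read 18.10, 18.06, 18.42 and 18.35 against 18.07, 18.52, 18.42 and 18.57, and its groups overlapped through siControl array 1, with a change of -0.16 and an adjusted p of 0.463 by limma. RPL22, which also binds viral and cellular RNAs, had a change of -0.30 and did not pass (limma adjusted p = 0.223). Of 25 alternative settings 1, with array weights, called RPL3 and RPL22 lower (limma adjusted p = 0.00806 and 0.00363).

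Of the L-suffix paralogs, RPL3L lay above 0 and RPL10L below it. RPL3L, the striated-muscle copy of RPL3, read 7.55, 7.58, 8.21 and 8.32 on the siGATA2 arrays and 7.24, 7.55, 7.39 and 7.36 on the siControl arrays. It overlapped between groups and had the highest change of the members, 0.53 (SE 0.20), which did not pass (limma adjusted p = 0.0985), although it did under scaling to the 75th percentile, at 0.70 and an adjusted p of 0.00669. RPL10L, known from the testis, fell by 0.62 (SE 0.16, limma adjusted p = 0.024), with 14.44, 14.58, 14.93 and 14.98 against 15.09, 15.43, 15.43 and 15.45, and its call was lost without siGATA2 array 1 or 2 or siControl array 2, 3 or 4 (adjusted p 0.0560 to 0.0698) and with the slide row as a block (0.0998). The RPL10L call was also lost under E1A scaling (limma adjusted p = 0.099) and without normalization (0.248). How much of its signal came from the closely related RPL10 mRNA was not tested. Without these L-suffix copies 28 of 77 genes were lower (36.4%, against 14.2% of all genes).

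**Figure D2:**
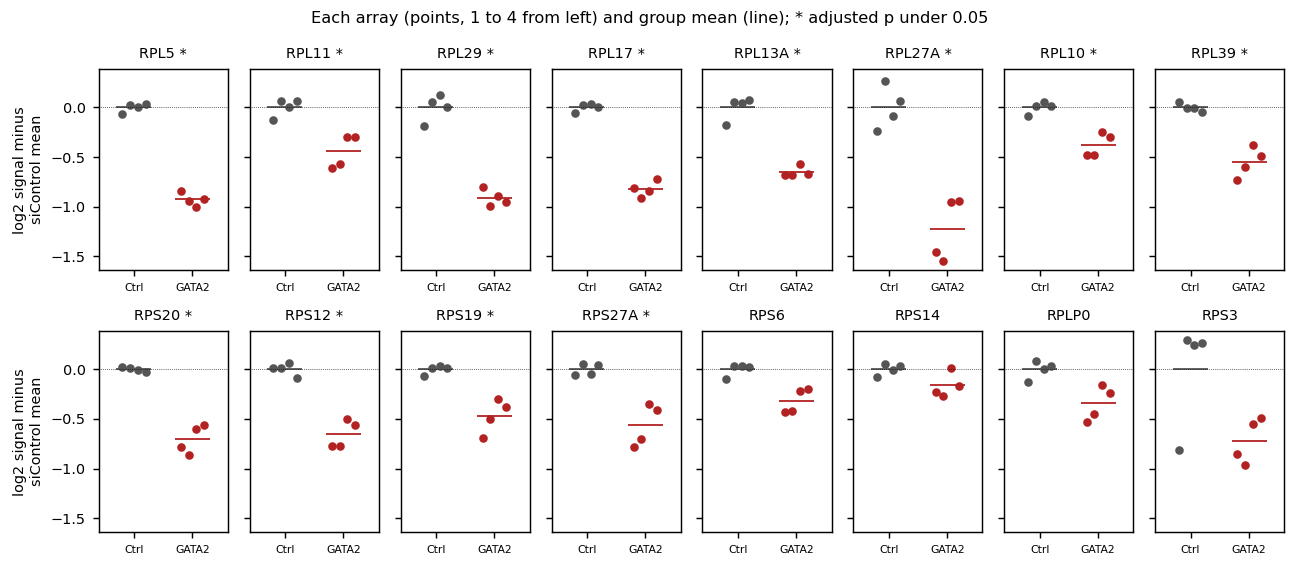
Log2 signal of 16 ribosomal protein genes on each array (points, arrays 1 to 4 from left to right in each group) after subtraction of the gene's siControl mean, with group means as lines and an asterisk where the adjusted p is under 0.05. RPL5, RPL17 and RPS20 show no overlap, the siGATA2 arrays 1 and 2 lie below arrays 3 and 4 in RPL11, RPL27A and RPS27A, and siControl array 1 lies far below the other controls in RPS3.

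The small subunit genes called lower ranged from -0.70 to -0.33. RPS20, which lies in the head of the small subunit, read 17.52, 17.44, 17.71 and 17.75 on the siGATA2 arrays and 18.33, 18.32, 18.30 and 18.29 on the siControl arrays. The controls lay close together and above every siGATA2 array. The change was -0.70 (SE 0.11, limma adjusted p = 0.00185). RPS20 did not pass under E1A scaling (limma adjusted p = 0.0727) or without normalization (0.0506). RPS12 read 17.52, 17.53, 17.79 and 17.74 against 18.31, 18.31, 18.36 and 18.21 and fell by 0.65 (SE 0.11, limma adjusted p = 0.00294). Under E1A scaling (limma adjusted p = 0.0786) and without normalization (0.0579) the RPS12 call was lost. RPS19, needed for small subunit maturation and mutated in Diamond-Blackfan anaemia, fell by 0.47 (SE 0.11, limma adjusted p = 0.0166), with 16.85, 17.04, 17.24 and 17.16 against 17.48, 17.56, 17.57 and 17.56. The RPS19 groups were separate, and the call was lost without siControl array 2 or 4 (adjusted p 0.0511 and 0.0517) and with the slide row as a block (adjusted p 0.0753). It was also lost under E1A scaling (limma adjusted p = 0.119), without normalization (0.169) and with siControl arrays 2 and 4 only (0.0607).

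RPS27A, made as a fusion with ubiquitin, read 16.29, 16.37, 16.72 and 16.66 on the siGATA2 arrays and 17.02, 17.13, 17.03 and 17.11 on the siControl arrays. It fell by 0.56 (SE 0.13, limma adjusted p = 0.013), and siGATA2 arrays 1 and 2 were the lowest. With the slide row as a block it was at -0.53 and did not pass (limma adjusted p = 0.0637). RPS27A also did not pass under E1A scaling (limma adjusted p = 0.0973) or without normalization (0.151). RPS15A was lower, at -0.63 (SE 0.13, limma adjusted p = 0.0128), from 3 siGATA2 values, since the spot of siGATA2 array 4 was an outlier and left out. Further small subunit genes called lower included RPS23, RPS26, RPS18, RPS25, RPS21 and RPS29, with changes from -0.57 to -0.33. RPS23 and RPS26 did not pass with the slide row as a block (limma adjusted p = 0.0687 and 0.069), nor did RPS26 with the replicate block (limma adjusted p = 0.0532). Neither passed under E1A scaling (limma adjusted p = 0.0932 and 0.142) or without normalization (0.115 and 0.132). With siControl arrays 2 and 4 only they did not pass either (limma adjusted p = 0.054 and 0.063).

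Several well studied small subunit genes did not pass. RPS6, the ribosomal substrate of S6 kinase, read 18.07, 18.08, 18.28 and 18.31 on the siGATA2 arrays and 18.40, 18.54, 18.54 and 18.52 on the siControl arrays, without overlap, a change of -0.32 (SE 0.10, limma adjusted p = 0.0577). RPS3, at the mRNA entry and also a DNA repair factor, read 15.09, 14.98, 15.39 and 15.45 against 15.13, 16.23, 16.19 and 16.21, a change of -0.72 (SE 0.27, limma adjusted p = 0.0895). Its siControl array 1 lay at the level of the siGATA2 arrays and far below the other controls. RPSA, also known as the laminin receptor precursor, showed the same array apart, with 16.95, 16.86, 16.98 and 17.13 against 16.94, 17.62, 17.60 and 17.60 and a change of -0.46 (limma adjusted p = 0.0918).

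Without siControl array 1 all 3 of these genes passed, with a limma adjusted p of 0.0427 for RPS6 (-0.35), 0.00255 for RPS3 (-0.99) and 0.00365 for RPSA (-0.63). RPS14, which is haploinsufficient in the 5q- syndrome, read 18.01, 17.97, 18.25 and 18.06 against 18.15, 18.29, 18.22 and 18.27, overlapping, with a change of -0.16 (limma adjusted p = 0.286). RPS4X, the X-linked copy of RPS4, had a change of -0.29 (limma adjusted p = 0.0959). Of 25 alternative settings, RPS6 was called lower in 9, RPSA in 5, RPS3 in 4, RPS4X in 4 and RPS14 in 1. For RPS6 these included the methods' t-test (adjusted p = 0.0221). RPS15, in the head of the small subunit, was the small subunit gene that did not lie below 0, with 17.93, 18.03, 18.29 and 18.20 against 17.86, 18.19, 18.15 and 18.18 and a change of 0.02 (limma adjusted p = 0.935), whose sign turned under other scalings.

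The stalk proteins, which recruit elongation factors to the large subunit, did not pass. RPLP0, often used as a reference gene in qPCR, read 17.93, 18.01, 18.30 and 18.22 on the siGATA2 arrays and 18.34, 18.55, 18.46 and 18.50 on the siControl arrays, with no overlap and a change of -0.34 (SE 0.12, limma adjusted p = 0.0702). RPLP1 had a change of -0.16 (limma adjusted p = 0.325) and RPLP2 one of -0.26 (limma adjusted p = 0.154), and in both some siGATA2 values reached the range of the controls. Of 25 alternative settings, RPLP0 was called lower in 5, RPLP2 in 2 and RPLP1 in 0. The 5 included scaling to the 75th percentile (limma adjusted p = 0.0426) and the intensity trend (0.0272).

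The level of the members differed between arrays of the same group. Their median log2 signal was 17.65, 17.65, 17.90 and 17.90 on siGATA2 arrays 1 to 4 and 18.00, 18.15, 18.15 and 18.15 on siControl arrays 1 to 4. The siGATA2 arrays 1 and 2 were thus lower than arrays 3 and 4, and every siGATA2 array was below every control. Scaling to the 75th percentile and scaling to the E1A spike-in also left every siGATA2 array below every control. Without normalization siControl array 1, at 17.69, lay below siGATA2 arrays 3 and 4, at 17.94 each. The median change was -0.57 under the 75th percentile, -1.17 under E1A scaling and -0.54 without normalization. Relative to the median of all genes it was -0.40 after quantile normalization and -0.74 under the other 3. Those 3 differ only by 1 constant per array, which cancels in this relative value, so their -0.74 is 1 value and not 3 separate checks. The count of lower members was 44 under the 75th percentile (55.7%, against 13.2% of all genes). It was 4 under E1A scaling (5.06% against 6.64%) and 3 without normalization (3.80% against 5.54%), so that under these scalings the members were not called more often than all genes. The E1A values depend on siControl array 1, without which the median was -0.72 and 58 members were lower (73.4%, against 15.1% of all genes). That setting was added after the values had been seen.

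**Figure D3:**
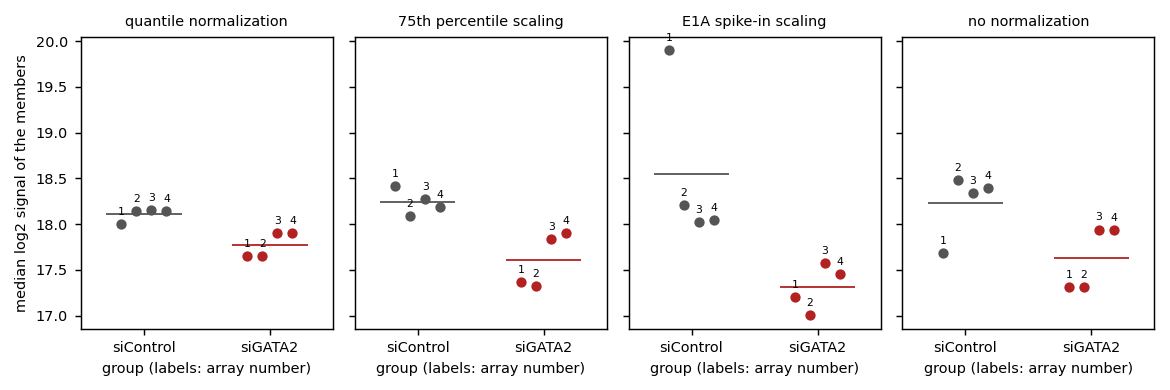
Median log2 signal of the ribosomal protein genes on each array (vertical axis) under 4 ways of putting the arrays on 1 scale, with array numbers beside the points and lines at the group means. After quantile normalization the siGATA2 arrays lie at 17.65 to 17.90 and the controls at 18.00 to 18.15, and under E1A scaling siControl array 1 stands apart at 19.90.

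Position on the slide was unbalanced between the groups, so the values were also taken within its rows, a choice made after the data were seen. In the row with siGATA2 arrays 1 to 3 the member median was -0.38, with 78 of 79 genes below 0 and a median of 0.02 over all genes. In the row with siGATA2 array 4 it was -0.19, with 71 of 78 genes below 0 and 0.10 over all genes. RPS15A had no value in that row. With the row as a block, 9 members were lower (11.4%, against 10.4% of all genes), a share near the background. RPL5 was -0.97 and -0.91 within the rows, and RPL29 was -0.90 and -0.95.

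Probes for the same gene mostly moved the same way but not by the same amount. Of 154 probes tested for these genes 152 were below 0, and limma, adjusted over all probes, called 69 lower and 0 higher. Of all probes tested, 14.5% were lower. In 40 genes with more than 1 probe, the dimmest fell more than the brightest in 27, and the median change was -0.31 for the brightest and -0.46 for the dimmest. All probes were lower in 11 of these genes and none was called in 18. Since processed pseudogenes resemble many of these mRNAs and the probe sequences were not examined, signal shared with other transcripts was not tested.

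The widest difference between probes was in RPL28, a large subunit gene whose probes are designed on several RefSeq transcripts. The brightest RPL28 probe read 16.83, 16.89, 17.32 and 17.27 on the siGATA2 arrays and 17.28, 17.49, 17.50 and 17.48 on the siControl arrays, a change of -0.36 that did not pass. A probe for another transcript read 11.42, 11.24, 11.49 and 11.62 against 13.47, 13.51, 13.51 and 13.55, and fell by 2.07 (SE 0.11, limma adjusted p = 2.2e-05 over all probes). A further transcript probe fell by 1.05 (limma adjusted p = 0.00402), with no overlap between groups. In RPS23, a decoding-centre protein, the brighter probe was at -0.57 and the other at -1.22 (SE 0.15, limma adjusted p = 0.00066). In RPS26, which contacts mRNA upstream of the start codon, the 3 probes were lower, at -0.42, -0.62 and -0.98.

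**Figure D4:**
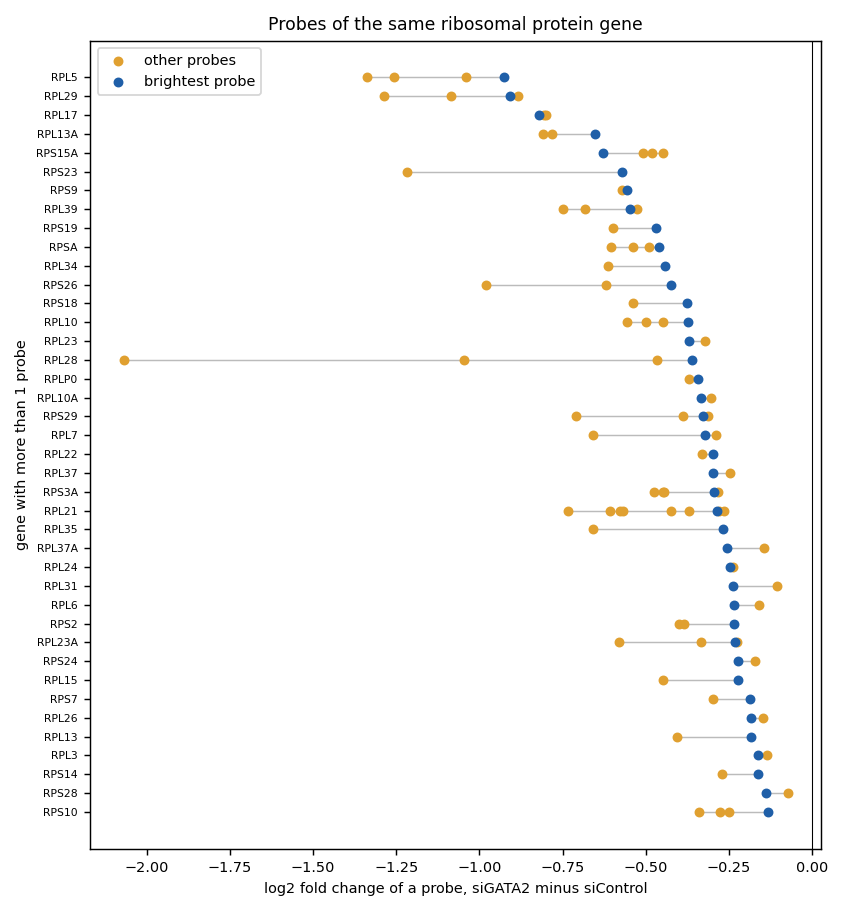
Log2 fold change of each probe (horizontal axis) for the 40 ribosomal protein genes with more than 1 probe tested, blue for the brightest and orange for the others, with a grey line over their range. All of these probes lie left of 0, and RPL28 reaches from -0.36 to -2.07.

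Members with and without a pyrimidine run at the annotated start both held genes that fell. A gene whose start is annotated off the one used can be placed in the wrong class. The median change was -0.31 in the 46 genes with the run, of which 17 were lower. In the 17 genes without it the median was -0.25 and 6 were lower. Of all genes, 14.2% were lower, and the difference between the 2 classes was not tested. Of 18 other genes known for TOP mRNAs, 6 fell (33.3%, against 14.2% of all genes) and 0 rose (12.3% of all genes), and their median was -0.26. The largest fall there was in NAP1L1, a histone chaperone, which read 12.87, 12.72, 12.71 and 12.77 on the siGATA2 arrays and 14.90, 14.95, 14.91 and 14.89 on the siControl arrays, a change of -2.14 (SE 0.089, limma adjusted p = 1.32e-05). The other 5 were HNRNPA1, EEF1B2, BTF3, EEF1G and EIF3E, whose changes ran from -1.02 to -0.56.

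Some ribosomal protein genes and close paralogs lie outside the symbol rule. Of 7 such genes, 3 fell (42.9%, against 14.2% of all genes) and 0 rose (12.3% of all genes), and their median was -0.49. RPL22L1, a paralog of RPL22, fell by 1.11 (SE 0.090, limma adjusted p = 9.3e-05), with 17.63, 17.60, 17.54 and 17.50 against 18.66, 18.74, 18.61 and 18.70. RPS27L and RPL7L1 were lower, at -0.66 and -0.51. RPL26L1 went the other way, at 0.37, with every siGATA2 value above every siControl value, and did not pass (limma adjusted p = 0.0704). With the intensity trend 1 of the 7 genes was called higher. FAU, which encodes a small subunit protein as a fusion with a ubiquitin-like sequence, had a change of -0.11 and did not pass (limma adjusted p = 0.414).

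Of 22 genes for subunit assembly and export, 9 fell and 2 rose (40.9% and 9.09%, against 14.2% and 12.3% of all genes), and their median was -0.34. The 2 rises depended on the scaling, since 4 genes were lower and 0 higher under E1A scaling, and 3 and 0 without normalization. RRS1, which helps bring the 5S particle to the large subunit, fell by 1.36 (SE 0.11, limma adjusted p = 0.000108), and NOB1, the nuclease that finishes 18S rRNA, fell by 1.34. RPF2, which works with RRS1, fell by 0.66. SBDS, which releases EIF6 from the large subunit, rose by 0.85 (limma adjusted p = 0.0214), and EIF6 rose by 0.81. The SBDS call was lost without siGATA2 array 3 or siControl array 4 (adjusted p 0.0531 and 0.0518), under E1A scaling, where the change was 0.22 (0.868), without normalization (0.172) and with siControl arrays 2 and 4 only (0.112).

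Of 31 other translation factors, 6 fell and 2 rose (19.4% and 6.45%, against 14.2% and 12.3% of all genes), and their median was -0.20. Under E1A scaling 1 was lower and 0 higher, and without normalization 0 were called. The methods' t-test called 7 lower and 0 higher. EIF3B, a scaffold of the initiation factor eIF3, fell by 0.98 (SE 0.11, limma adjusted p = 0.000363). EEF2K, the kinase that inhibits elongation factor eEF2, rose by 0.90 (limma adjusted p = 0.0373), with 12.64, 12.52, 11.77 and 11.80 against 11.77, 11.17, 11.14 and 11.06. In EEF2K the siGATA2 arrays 1 and 2 were the highest, siControl array 1 met the lowest siGATA2 value, and the call was lost without siGATA2 array 1 or 2 or siControl array 2, 3 or 4 (adjusted p 0.0850 to 0.0978), with the slide row as a block (0.129) and under E1A scaling, where the change was 0.25 (0.866). By the methods' t-test EEF2K did not pass (adjusted p = 0.068). Nor did it by limma without normalization (adjusted p 0.0558) or with siControl arrays 2 and 4 only (0.0532).

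In the mTORC1 pathway 6 of 14 genes fell and 2 rose (42.9% and 14.3%, against 14.2% and 12.3% of all genes), and their median was -0.37. EIF4EBP1, a translation repressor that mTORC1 inactivates, read 13.06, 12.90, 12.69 and 12.70 on the siGATA2 arrays and 14.90, 15.27, 15.22 and 15.29 on the siControl arrays, a change of -2.33 (SE 0.14, limma adjusted p = 2.65e-05). Its relative EIF4EBP2 fell by 1.80, LARP1 by 0.68, and the complex members RPTOR and MLST8 by 0.61 and 0.53. DEPTOR, an inhibitor of mTOR, fell by 0.55. RPS6KB1, an S6 kinase, rose by 0.58 (SE 0.13, limma adjusted p = 0.0143), and MTOR rose by 0.42. Under E1A scaling and without normalization 2 genes were lower and 0 higher, and under the former RPS6KB1 was at -0.046.

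The mitochondrial ribosomal proteins, which form a separate ribosome, spread over a wider range than the cytosolic ones. They numbered 77, of which 23 fell and 5 rose (29.9% and 6.49%, against 14.2% and 12.3% of all genes). Their median was -0.20, with quartiles at -0.54 and 0.07. MRPL17 read 10.39, 10.35, 10.55 and 10.68 on the siGATA2 arrays and 12.41, 13.12, 13.15 and 13.10 on the siControl arrays, a change of -2.46 (SE 0.19, limma adjusted p = 7.69e-05). MRPS28 rose by 0.68 (SE 0.14, limma adjusted p = 0.00786), with 14.76, 14.77, 15.22 and 15.18 against 14.30, 14.32, 14.28 and 14.29. Under E1A scaling, under the 75th percentile and without normalization, 0 were called higher. In the same order 8, 21 and 5 were called lower, where 6.64%, 13.2% and 5.54% of all genes were. The difference between cytosolic and mitochondrial genes was not tested.

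**Figure D5:**
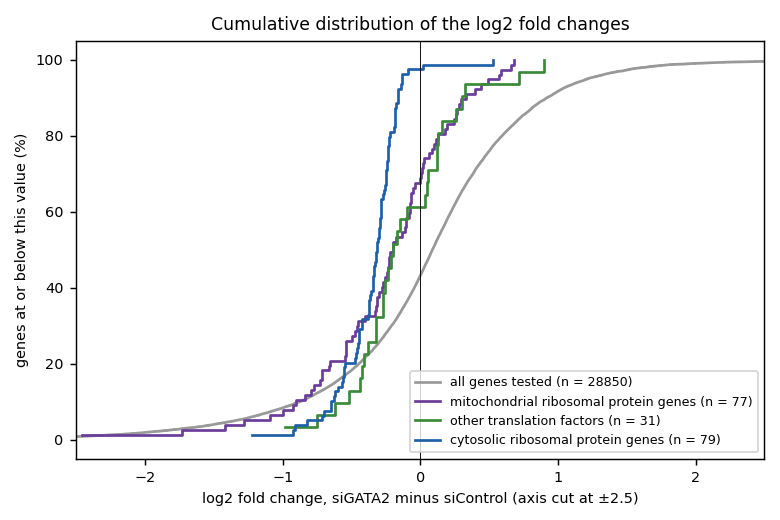
Share of genes (vertical axis, percent) at or below each log2 fold change (horizontal axis) for the 79 cytosolic ribosomal protein genes, 77 mitochondrial ones, 31 other translation factors and all 28850 genes tested. The curve of the cytosolic genes rises steeply around its median of -0.32, and the mitochondrial curve, with a median of -0.20, is broader.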

How the data were processed

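Expression was measured on 8 one-colour Agilent arrays. The authors deposited each spot's processed signal, an intensity after background correction, as Agilent Feature Extraction 11.0.1.1 wrote it (version from the submitters' processing notes). The deposited matrix of log2 values was used as an alternative. The files and the methods name different array designs. From the intensity, outlier spots were dropped, log2 values were averaged by probe, and the arrays were quantile-normalized (limma 3.58.1, R 4.3.3). Of 42405 probes, 26364 were named by symbol through a RefSeq table (GRCh38.p14, also the source of the promoter sequences). The 1914 unannotated probes and those averaging under 3 were removed, which left 35514, and the brightest probe was kept for each gene. Groups were compared by limma (lmFit, then eBayes), and p-values were adjusted over 28850 genes by the Benjamini-Hochberg method. The t-test named in the methods was run as an alternative. The test was checked on simulated data.

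Groups and replicate numbers came from the labels. The members and gene lists were chosen with earlier results of these data known. Named genes are well studied members, the L-suffix copies with their parents, the 6 members that fell most, and the called gene with the largest fall and rise of each list. RPS12, RPS15, RPS15A, RPS23, RPS26, RPL28 and other genes given beside counts were chosen after their values were seen. A few genes are counted but not reported by name here. Arrays have no read depth, and their number limits the precision. Replicate numbers did not pair the arrays, since the deviations of same-numbered arrays correlated at 0.54, -0.31, 0.17 and 0.22. Other scalings, filters, tests, blocks and left-out arrays were tried as alternatives.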

Additional observations from a re-analysis of the deposited data

Results flagged for a closer look

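In 12 of 80 groups of 4 arrays examined, 1 array lay far from the other 3, by a gap that is a large share of the group's range. Chance gives about 1 in 20. Of these, 11 were siControl array 1, the array with the low E1A signal, and its part in the results was not tested beyond leaving it out. It was lower than the other controls in RPSA (gap over range 0.970), RPLP2 (0.844), RPS6 (0.912), RPS3 (0.959), RPL13A (0.897), RPL10L (0.929), RPS15 (0.894), RPL28 (0.875) and MRPL17 (0.927), and higher in EEF2K (0.842). The median of the ribosomal protein genes was lower there too (0.959), at 18.00 against 18.15 on each of the others. In the siGATA2 group, array 3 was apart in RPL13A (0.914), at 17.97 against 17.85 to 17.86.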

How the results depend on the processing

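Over 25 alternatives, 76 of the 79 genes stayed below 0 in all, and the exceptions were RPS15, RPS10 and RPL3L. The count of lower genes, 29 as reported, was 44 under the 75th percentile, 75 with array weights, where 26.1% of all genes were lower, and 17 with siControl arrays 2 and 4 only (21.5%, against 12.9% of all genes). It was 9 with the slide row as a block, 4 under E1A scaling and 3 without normalization, and in these settings the share of members called (11.4%, 5.06% and 3.80%) was near or below that of all genes (10.4%, 6.64% and 5.54%). The replicate block gave 17 (21.5%, against 12.9% of all genes), although the numbers pair no arrays and 3 arrays correlated best with their own number. With the title letter as a random block, at a correlation of 0.48 within letters, it was 41 (51.9% against 17.1%). The intensity trend gave 42 (53.2% against 14.8%). Leaving out 1 array gave 16 to 36, with medians of -0.27 to -0.37. The count was 16 or 17 without siGATA2 array 1 or 2 or siControl array 2, 3 or 4 (20.3% to 21.5%, against 11.2% to 12.3% of all genes). Without siControl array 1 it was 36 (45.6% against 15.4%). One gene, RPL3L, was called higher under the 75th percentile and with the title letter as a random block (1 each). The median was -0.57 under the 75th percentile, -1.17 under E1A scaling and -0.54 without normalization. E1A scaling without siControl array 1, chosen after seeing the data, gave 58 lower genes (73.4%, against 15.1% of all genes) and a median of -0.72. RPS15 turned to -0.23 under the 75th percentile, -0.84 under E1A scaling, -0.44 with that array also left out, -0.21 without normalization, -0.14 with array weights and -0.071 with siControl arrays 2 and 4 only, and ranged from -0.061 to 0.078 with 1 array left out. RPS6KB1 and MRPS28 turned to -0.046 and -0.021 under E1A scaling. The cause was not tested.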
